A study of Danio rerio with 2 samples.

Results

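The receptors described here are those through which 4 neuropeptide families, gonadotropin-releasing hormone (GnRH), cholecystokinin, galanin and kisspeptin, can act on pituitary cells. They were chosen by gene symbol and comprise 9 of the 25432 genes listed: *gnrhr2*, *CCKBR* (ENSDARG00000076824, a predicted cholecystokinin receptor), *CCKAR*, *galr1a*, *galr1b*, *galr2a*, *galr2b*, *kiss1ra* and *kiss1rb*. Of these, 7 had a count in at least 1 cell and 4 had at least 100 counts in all cells together. Pituitaries of sexually mature female zebrafish aged 3 months, either wild-type (WT) siblings or homozygous *gnrh3*-/- mutants, were dissected 1 h before lights on, and 5 were pooled per genotype into a single droplet library. The mutants lack Gnrh3 throughout life, so an effect in the pituitary cannot be told apart from one that arose during development.

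GnRH reaches the teleost pituitary through axons that end close to the gonadotropes, and its receptors couple mainly to Gq proteins, which raise intracellular calcium and drive secretion. In mammals the cholecystokinin B receptor and the kisspeptin receptor also couple to Gq, whereas galanin receptor 1 couples to Gi and lowers cyclic AMP. In fish, LH and FSH are made mainly by separate gonadotropes, so that a receptor on only one of the types would give its peptide direct access to that type alone. The authors report, however, that both types also held transcripts of the other hormone at lower levels.

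The values are counts of unique molecular identifiers (UMIs), each standing for 1 captured transcript molecule, in 2194 WT and 4794 *gnrh3*-/- cells, whose median depth was 6961 and 5368 UMIs. The cell types are those that the authors assigned, and 13 of them are described. LH gonadotropes (232 WT and 603 *gnrh3*-/- cells) had *lhb* levels of 900.4 and 627, FSH gonadotropes (231 and 794 cells) had *fshb* levels of 244 and 207, and thyrotropes (205 and 410 cells) had *tshba* levels of 2094 and 1959, where a level is the number of UMIs per 10000 UMIs of all genes in the cells of a type. The authors assigned the types by marker genes that included these hormones, so the levels are no separate check of the labels. Markers of blood, immune and vascular cells were at or near 0 in the same types, with 0 to 4 of the 5 or 6 markers of a list detected and a summed level of at most 0.0276. Hormone genes of the other types were higher in *gnrh3*-/- cells, with summed levels (WT, then *gnrh3*-/-) of 22.7 and 268 for LH gonadotropes, 46.4 and 343 for FSH gonadotropes, and 8.24 and 369 for thyrotropes. A hormone gene of another type exceeded 5% of UMIs in 2 and 29 LH gonadotropes, 2 and 56 FSH gonadotropes, and 0 and 14 thyrotropes. Whether free RNA or doublets supplied these UMIs was not tested. For LH gonadotropes the paper itself advises caution about this rise. Intervals are exact 95% intervals (Poisson for levels, Clopper-Pearson for shares) and cover counting error only. With 1 library per genotype the spread between fish is unknown, and no difference between the genotypes was tested. In pooled sums, fewer transcript molecules per cell cannot be told apart from fewer cells with the transcript.

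Each of the 4 receptors with enough counts was found largely in a single hormone cell type, and that type was the same in both libraries. Most transcripts of *gnrhr2*, the GnRH receptor gene described here, were in LH gonadotropes, those of *CCKBR* and *galr1b* in FSH gonadotropes, and those of *galr1a* in thyrotropes. The type with the highest level was thus shared by the libraries for 4 of 4 receptors, where it was shared for 49.6% of the 11216 genes with at least 100 UMIs. In addition, 3 of the 4 (*gnrhr2*, *CCKBR* and *galr1a*) exceeded the next type at least 10-fold in each library, as did 1.96% of the 11216 genes. Split by type, the share of genes passing that limit was 0.125% for LH gonadotropes, 0.0981% for FSH gonadotropes and 0.0713% for thyrotropes. Between the gonadotropes, 1 receptor (*gnrhr2*) was at least 4-fold higher in LH gonadotropes of both libraries, as were 2.58% of 7821 genes, and 2 receptors (*CCKBR* and *galr1b*) were at least 4-fold higher in FSH gonadotropes, as were 2.65%. Outside the type of their highest level, *gnrhr2* had 23 (WT) and 45 (*gnrh3*-/-) UMIs, *CCKBR* 6 and 10, *galr1b* 27 and 17, and *galr1a* 13 and 33. The receptors therefore reached the minimum of 100 UMIs only through the type where they were high. This favours a shared highest type and a large fold, so the shares of all genes are no test of the receptors. Cells of one type were also grouped by their expression, so these contrasts between types are descriptions.

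For *gnrhr2*, 978 of 1001 UMIs (97.7%) in WT cells and 1177 of 1222 UMIs (96.3%) in *gnrh3*-/- cells fell in LH gonadotropes. The next type was FSH gonadotropes, with 22 and 30 UMIs, a level of 0.0615 (95% interval 0.0385 to 0.0930) and 0.0414 (0.0279 to 0.0591). The LH gonadotrope level was therefore 41.8-fold (27.5 to 67.1) and 54.0-fold (37.6 to 80.4) higher. Of the other 12 types, 10 in WT cells and 7 in *gnrh3*-/- cells had no *gnrhr2* UMI. Of the 22 WT UMIs in FSH gonadotropes, 18 were in 1 cell, so the WT rank and fold rest largely on that cell. In the *gnrh3*-/- library thyrotropes (0.0381, 0.0140 to 0.0830) and corticotropes (0.0321, 0.0104 to 0.0750) had intervals that overlapped that of FSH gonadotropes. Transcripts of *gnrhr2* were thus as good as confined to LH gonadotropes among the types examined. The small remainder cannot be assigned to FSH gonadotropes in particular.

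*CCKBR* showed the opposite distribution between the gonadotropes. FSH gonadotropes held 165 of its 171 WT UMIs (96.5%) and 343 of its 353 *gnrh3*-/- UMIs (97.2%), while LH gonadotropes held 5 and 3. The level in FSH gonadotropes was 35.1-fold (14.7 to 109) that of LH gonadotropes in WT cells. In the *gnrh3*-/- library lactotropes ranked next with 2 UMIs, and the level was 34.2-fold theirs, with an interval (9.39 to 283) that reaches below 10-fold. FSH gonadotropes with a *CCKBR* UMI numbered 110 of 231 (47.6%, 41.0% to 54.3%) among WT cells and 269 of 794 (33.9%, 30.6% to 37.3%) among mutant cells. Outside FSH gonadotropes and the other gonadotrope, no WT type had more than 1 UMI. The share of cells with a UMI over the types other than FSH gonadotropes was 0.232% and 0.246%, at median depths of 6869 and 4921.5 UMIs against 14919 and 8509.5 in FSH gonadotropes. After each cell was thinned to 2000 UMIs, the expected shares in FSH gonadotropes were 8.94% and 9.82%, against 0.0394% and 0.0654% in the other types.

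**Figure D1:**
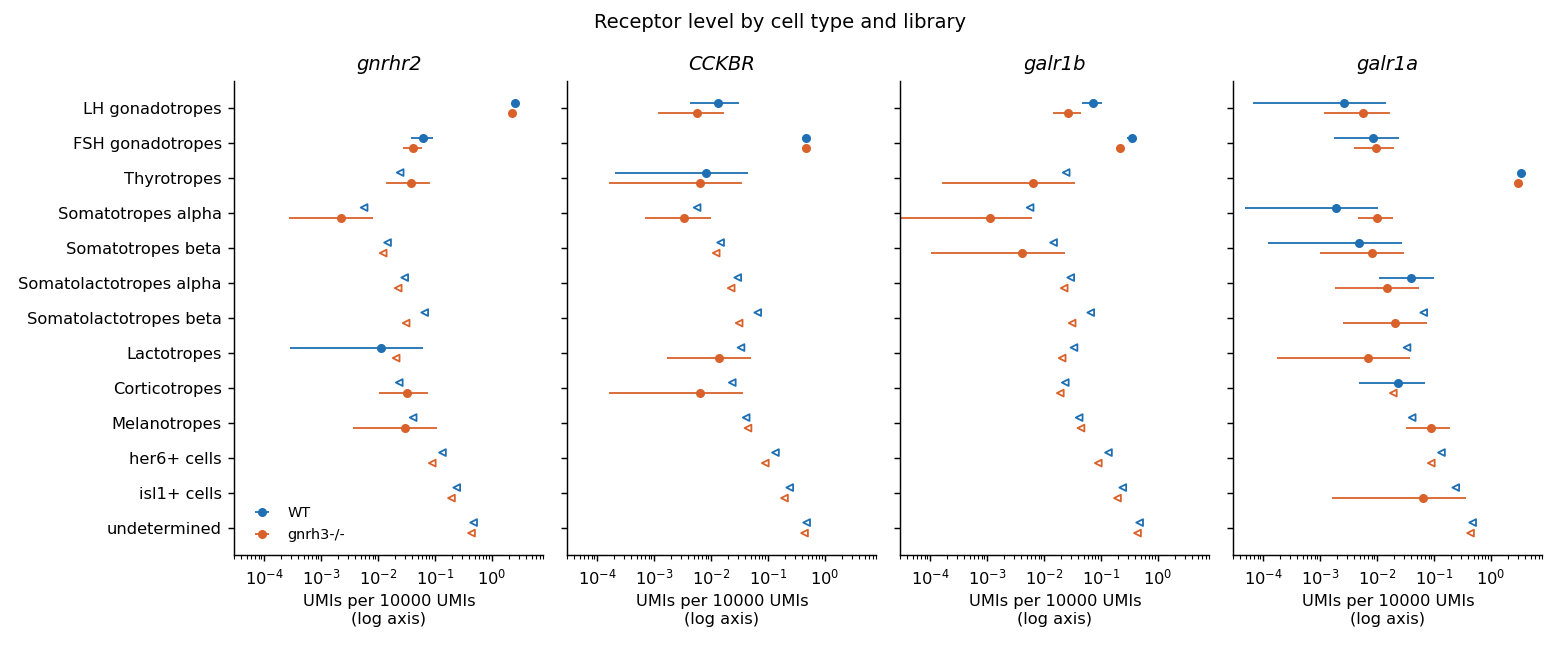
Level of *gnrhr2*, *CCKBR*, *galr1b* and *galr1a* (UMIs per 10000 UMIs, log axis) in each of 13 cell types in the WT (blue) and *gnrh3*-/- (orange) library. Points are the levels with exact Poisson 95% intervals, and open triangles give the level of 3 UMIs, the limit used where a type had 0 UMIs. Each receptor stands out in 1 type in both libraries, and *galr1b* has a further, lower level in LH gonadotropes, at 0.0710 and 0.0266.

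The inhibitory galanin receptors divided between FSH gonadotropes and thyrotropes. *galr1b* was the least exclusive of the 4 receptors. FSH gonadotropes held 124 of its 151 WT UMIs (82.1%) and 155 of its 172 *gnrh3*-/- UMIs (90.1%), and LH gonadotropes held 27 and 14. The FSH gonadotrope level was 4.88-fold (3.20 to 7.70) and 8.05-fold (lower bound 4.65) that of LH gonadotropes, and in WT cells the remaining 11 types had no UMI at all. LH gonadotropes with a *galr1b* UMI numbered 19 of 232 (8.19%) and 14 of 603 (2.32%). After thinning to 2000 UMIs, the shares in LH gonadotropes were 1.31% and 0.489%, against 6.98% and 4.22% in FSH gonadotropes. Empty droplets, which hold free RNA, had *galr1b* levels of 0.0425 and 0.0253. Free RNA made up at most 3.17% and 35.3% of the UMIs of LH gonadotropes. This limit is the largest value that a hormone gene of another type gave, so it is a loose one. In the *gnrh3*-/- library *galr1a* was at 0.00570 (0.00118 to 0.0167) in LH gonadotropes, against 0.348 in empty droplets. Whether free RNA supplied the *galr1b* UMIs of LH gonadotropes was not tested.

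*galr1a*, the other copy of galanin receptor 1, was a thyrotrope gene. Its level in thyrotropes was 3.32 (3.01 to 3.66) in WT cells and 3.02 (2.75 to 3.30) in *gnrh3*-/- cells, from 408 and 475 UMIs. These made up 96.9% and 93.5% of its UMIs in the types described. The next type was somatolactotropes alpha in WT cells with 4 UMIs and melanotropes in *gnrh3*-/- cells with 6 UMIs, which left thyrotropes 84.8-fold (32.9 to 313) and 33.9-fold (15.5 to 92.8) higher. Of the WT thyrotropes, 157 of 205 (76.6%, 70.2% to 82.2%) had a UMI, as did 240 of 410 *gnrh3*-/- thyrotropes (58.5%, 53.6% to 63.4%). Thinned to 2000 UMIs, these shares were 46.6% and 44.5%, whereas the other types had 0.119% and 0.210%. In FSH gonadotropes *galr1a* had 3 UMIs, all in 1 cell, and 7 UMIs in 6 cells, and 0 WT and 1 *gnrh3*-/- FSH gonadotropes had both galanin receptor 1 copies.

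The remaining members were nearly absent from these cells. No UMI of *CCKAR*, the cholecystokinin A receptor, or of *kiss1ra*, a kisspeptin receptor, was found in any cell of either library. The limit that a count of 0 leaves, taken as the level of 3 UMIs, was 0.00788 (WT) and 0.00570 (*gnrh3*-/-) for LH gonadotropes and 0.00838 and 0.00414 for FSH gonadotropes. *kiss1rb*, the second kisspeptin receptor, had 1 UMI in a WT LH gonadotrope and 1 UMI in a *gnrh3*-/- FSH gonadotrope. *galr2a* had 1 UMI, in a *gnrh3*-/- FSH gonadotrope, and all 3 UMIs of *galr2b* came from a single WT thyrotrope. These low values limit detection at this depth and do not show that the genes are silent.

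The peptides themselves were also rare among pituitary transcripts. *galn*, which encodes galanin, had 67 and 117 UMIs over all cells. Its levels were highest in somatolactotropes beta (0.286 and 0.228) and lactotropes (0.179 and 0.201) and were 0.0196 and 0.0152 in FSH gonadotropes and 0.00815 and 0.0191 in thyrotropes, the types with galanin receptor 1. *ccka* had 29 UMIs in WT cells, of which 28 were in 3 *her6*+ cells, and 1 UMI in *gnrh3*-/- cells. Of *cckb*, the other cholecystokinin gene, 0 and 2 UMIs were found. *kiss1* had 0 and 4 UMIs, *kiss2* 1 and 0, *spx* (spexin, a galanin-related peptide) 1 and 4, *gnrh2* 0 in both and *gnrh3* 1 in each. Of the other GnRH receptor genes in the list, *gnrhr1* had 1 UMI in each library and *gnrhr4* had 2 and 1.

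Peptide receptors of other families served as a comparison. The list held 63 such genes, 42 of them detected in a cell and 12 with at least 100 UMIs. The type with the highest level was the same in both libraries for 11 of the 12, and 3 were at least 10-fold over the next type in each library. These 3 were *mchr1b* (a melanin-concentrating hormone receptor) in thyrotropes and *ntsr1* (a neurotensin receptor) and *grpr* (a gastrin-releasing peptide receptor) in corticotropes. The other peptide receptors with the highest levels in LH gonadotropes were *oprl1* (the nociceptin receptor, 0.189 and 0.169), *vipr1b* (a receptor for vasoactive intestinal peptide, 0.0578 and 0.0456) and *npr1a* (a natriuretic peptide receptor, 0.0447 and 0.0456), each far below the *gnrhr2* level in UMIs. In FSH gonadotropes, ranked like those of LH gonadotropes by the mean of the libraries, they were *crhr1* (a corticotropin-releasing hormone receptor, 0.0642 and 0.109), *vipr1b* (0.0838 and 0.0732) and *trhr2* (a thyrotropin-releasing hormone receptor, 0.0419 and 0.0235, the latter below the 0.0387 of the somatostatin receptor *sstr3*), all with fewer UMIs than *CCKBR* or *galr1b*. These ranks are within the gonadotropes. Of the genes named, only *oprl1* was highest in LH gonadotropes among all types in both libraries. *vipr1b* was highest in melanotropes, *npr1a* in *isl1*+ cells and *crhr1* in corticotropes. A 3′ UMI counts a transcript once whatever its length, although capture can differ between genes.

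Genes that act below these receptors included widely found ones and some that were high in thyrotropes. Of 18 genes of the Gq branch (G proteins, phospholipases C, inositol trisphosphate receptors and protein kinases C), 17 were detected in a cell, and 0 of the 11 with at least 100 UMIs exceeded the next type 10-fold in each library, where 1.96% of all genes did. In LH gonadotropes the highest levels belonged to the protein kinase C gene *prkcea* (0.510 and 0.673), the phospholipase C gene *plcb3* (0.441 and 0.465) and *prkcaa* (0.368 and 0.427). In FSH gonadotropes they belonged to *prkcbb* (0.838 and 0.706), *prkcea* (0.472 and 0.391) and *prkcaa* (0.293 and 0.244). All 11 genes of the Gi branch (Gi and Go proteins and the potassium channels they open) had a UMI in a cell, and of the 8 with at least 100 UMIs, 0 passed 10-fold. The Gi gene *gnai1* led in both gonadotropes, with 1.12 and 1.23 among LH cells and 1.06 and 0.962 among FSH cells, ahead of *gnao1a* and the channel gene *kcnj3a*. Thyrotropes, the *galr1a* cells, had the highest *gnai1* level of all types in both libraries, at 4.49 and 3.94. The same was true of *gnai2b*, at 1.79 and 2.81, whose level was 0.0184 and 0.0247 in LH gonadotropes. In FSH gonadotropes *gnai2b* had 0.00838 and 0.0552. The Go gene *gnao1b* was at 0.350 and 0.229 in thyrotropes and at 0.0140 and 0.0111 in FSH gonadotropes. *gnai2b* and *gnao1b* were chosen for mention after their values were seen. Thyrotropes had the highest level in both libraries for 3 of the 8 Gi genes, and also for 2 of the 11 Gq genes, *prkcea* and *prkceb*. The share of all genes that were highest in thyrotropes was not computed, so whether these counts are unusual cannot be judged. The Gi branch was not high there throughout. *kcnj3a* had 0.244 and 0.223 in thyrotropes, against 0.439 and 0.526 in LH gonadotropes, and *kcnj3b* had 0.00815 and 0.00636 against 0.124 and 0.118.

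The number of receptor transcripts per cell was low. In LH gonadotropes the median cell held 3 *gnrhr2* UMIs in WT cells and 1 in *gnrh3*-/- cells, and the most in any cell were 24 and 10. Of the WT cells 31 had none, 35 had 1, 32 had 2 and 134 had 3 or more, while of the *gnrh3*-/- cells 163, 139, 117 and 184 did. Cells without a UMI were shallower, with a median of 7524 UMIs against 16616 in WT cells and 6750 against 8546.5 in *gnrh3*-/- cells. For *CCKBR* the median FSH gonadotrope held 0 UMIs, and 37 WT and 62 *gnrh3*-/- cells held at least 2. For *galr1b*, 25 and 18 cells did. No cell held over 3.23% of the *CCKBR* or *galr1b* UMIs of FSH gonadotropes, so neither level rests on a few cells.

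Detection was then set against depth. If every LH gonadotrope had transcribed the gene at the same level, 94.4% of WT and 80.7% of *gnrh3*-/- cells would have been expected to show a UMI at their depth, and 86.6% and 73.0% did. The overdispersion of *gnrhr2* among LH gonadotropes (the extra variance over counting, as a squared coefficient of variation) was 0.419 and 0.365. The median of the 2598 and 3517 genes with at least 100 UMIs in these cells was 0.137 and 0.179, and 79.8% and 70.1% of them lay below *gnrhr2*. For *CCKBR* in FSH gonadotropes, the share seen and the share expected at one level were 47.6% and 48.2% in WT and 33.9% and 33.5% in *gnrh3*-/- cells. For *galr1b* they were 39.0% and 39.6%, and 17.0% and 17.3%. Overdispersion was 0.220 and 0.196 for *CCKBR* and 0.228 and 0.244 for *galr1b*, where the median gene of FSH gonadotropes had 0.119 and 0.169. At under 1 UMI per cell the detected share responds little to unevenness, so these shares do not separate the receptors of FSH gonadotropes from *gnrhr2*. For *galr1a* in thyrotropes the shares were 76.6% against 81.4%, and 58.5% against 62.7%.

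**Figure D2:**
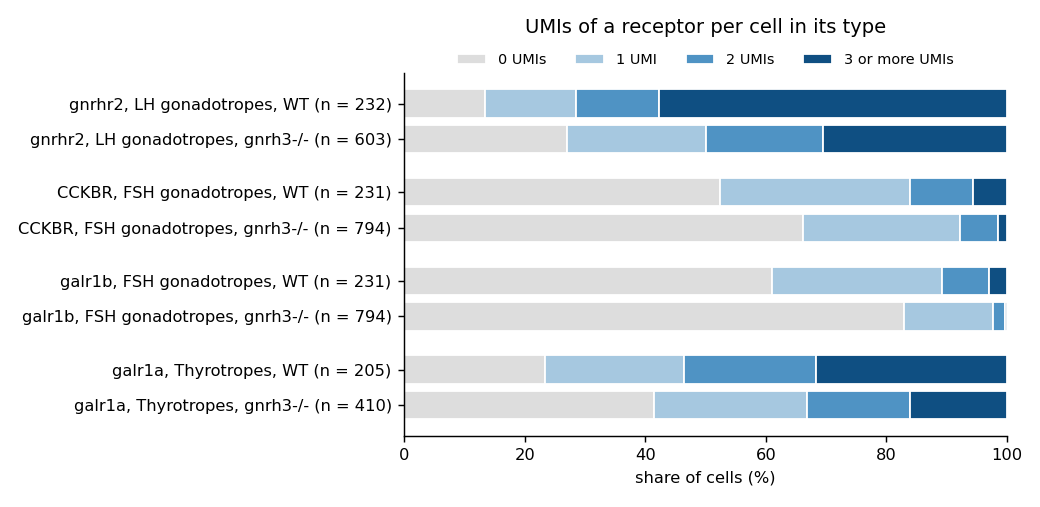
Share of cells (%) with 0, 1, 2 and 3 or more UMIs of a receptor in the type where its level was highest, by library, with the number of cells. A smaller share of WT than of *gnrh3*-/- cells is at 0 for all 4 receptors, for example 52.4% against 66.1% for *CCKBR*, at a median depth of 14919 against 8509.5 UMIs in FSH gonadotropes.

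To see whether FSH gonadotropes carry *CCKBR* and *galr1b* in the same cells, cells with a UMI of each were counted. In the WT library 44 of 231 cells (19.0%, 14.2% to 24.7%) had both, 66 had *CCKBR* alone, 46 had *galr1b* alone and 75 (32.5%) had neither. In the *gnrh3*-/- library 44 of 794 cells (5.54%, 4.06% to 7.37%) had both, 225 and 91 had one alone and 434 (54.7%) had neither. The product of the separate shares gives 42.9 and 45.7 cells, so the receptors met about as often as separate detection would give.

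Depth was then held closer to constant. In cells of at least 10000 UMIs, 42 of 172 WT cells had both receptors (24.4%, 18.2% to 31.5%) against 43.0 cells from the product, and 24 of 287 *gnrh3*-/- cells did (8.36%, 5.43% to 12.2%) against 28.7. Thinned to 5000 UMIs, the expected shares with both were 2.88% against 3.18% in WT and 2.36% against 2.42% in *gnrh3*-/- cells. The observed count thus stayed near the product in these deeper cells. From 5000 to under 10000 UMIs, 1 of 42 WT cells and 19 of 367 *gnrh3*-/- cells had both, against 2.62 and 19.7 from the product. When at least 2 UMIs of each were required, 6 WT cells and 0 *gnrh3*-/- cells qualified, too few to read.

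In LH gonadotropes *galr1b* and *gnrhr2* met about as often as separate detection would give. A *gnrhr2* UMI was present in most of these cells, and in 94.4% (WT) and 79.9% (*gnrh3*-/-) of those with at least 10000 UMIs. Of the 19 WT cells with a *galr1b* UMI, 18 also had *gnrhr2*, and of the 14 *gnrh3*-/- cells 13 did, beside 16.5 and 10.2 cells from the product. These are 7.76% and 2.16% of all LH gonadotropes, against 7.10% and 1.69% from the product of the shares. Their *lhb* level was that of LH gonadotropes (median per cell 787 with *galr1b* and 896 without in WT cells, 661 and 587 in *gnrh3*-/- cells). They also had a median *fshb* level of 9.06 against 3.18 in WT cells and 1.57 against 0 in *gnrh3*-/- cells, at a median depth of 19867 against 15350 and 11296.5 against 8244 UMIs. Scrublet, a doublet caller, called 0 of the 19 and 1 of the 14 cells as doublets. Only 5 cells were called in the whole WT library, so the WT value of 0 says little. All 3 receptors were found together in 1 *gnrh3*-/- FSH gonadotrope and 1 WT LH gonadotrope.

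**Figure D3:**
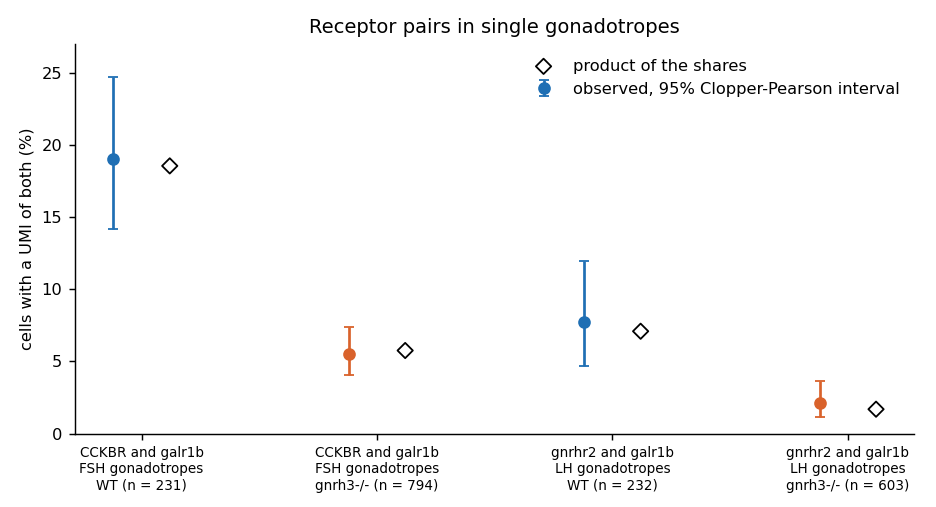
Share of gonadotropes (%) with a UMI of both receptors of a pair, observed (filled points with 95% Clopper-Pearson intervals, WT in blue and *gnrh3*-/- in orange) and as the product of the separate shares (open diamonds). Every product lies within the interval of the observed share, for example 18.6% beside 19.0% for *CCKBR* and *galr1b* in WT FSH gonadotropes.

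The few FSH gonadotropes with *gnrhr2* all had some *lhb*, in amounts that varied widely. Most FSH gonadotropes without *gnrhr2* had a *lhb* UMI as well, 191 of 228 WT and 618 of 777 *gnrh3*-/- cells. The median *lhb* level of the cells without *gnrhr2* was 8.50 and 6.64. Their median depth was 14836 and 8505 UMIs, against 17253 and 12661 in the cells with *gnrhr2*. In the WT library 3 cells held all 22 UMIs, and 18 of these were in 1 cell whose *lhb* level of 1062 exceeded that of the average LH gonadotrope and whose *fshb* level was 101. In the *gnrh3*-/- library 17 cells held 30 UMIs, 12 of them with 1 UMI each, and their *lhb* level ranged from 2.41 to 955 with a median of 148. Scrublet called 5 of these 17 cells as doublets and 0 of the 3 WT cells. It called only 5 cells in the whole WT library, so the WT cells may still be doublets. Without the WT cell that held 18 UMIs, 4 UMIs in 2 cells remain.

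FSH gonadotropes were therefore divided by their *lhb* level, at a limit of 223 in WT and 147 in *gnrh3*-/- cells, set as a fixed fraction of the median of LH gonadotropes. Of the cells with *gnrhr2*, 1 of 3 and 9 of 17 lay above it. The 19 WT and 95 *gnrh3*-/- cells above this limit together had *gnrhr2* levels of 0.493 (0.292 to 0.779) and 0.190 (0.116 to 0.293), whereas the 212 and 699 cells below it had 0.0124 (0.00339 to 0.0319) and 0.0162 (0.00775 to 0.0297). Empty droplets had *gnrhr2* levels of 0.213 and 0.222, and free RNA made up at most 8.15% and 57.0% of the UMIs of FSH gonadotropes. These are again loose limits, the largest that a hormone gene of another type gave. In *gnrh3*-/- FSH gonadotropes *galr1a* was at 0.00966 (0.00389 to 0.0199), against 0.348 in empty droplets. *CCKBR* was lower above the limit with overlapping intervals, at 0.329 (0.170 to 0.574) above and 0.476 (0.403 to 0.558) below the limit in WT cells, and 0.351 (0.247 to 0.484) and 0.494 (0.441 to 0.553) in *gnrh3*-/- cells. *galr1b* had 0.356 (0.190 to 0.609) above and 0.345 (0.284 to 0.416) below the limit in WT cells, and 0.275 (0.184 to 0.395) and 0.204 (0.170 to 0.242) in *gnrh3*-/- cells. FSH gonadotropes rich in *lhb* thus still had *CCKBR* (12 and 37 UMIs) and *galr1b* (13 and 29 UMIs). These counts are too few to show whether the levels were unchanged. The *gnrhr2* level of the same cells stayed below the 2.57 and 2.24 of LH gonadotropes. All 18 WT *gnrhr2* UMIs above the limit came from the 1 cell named above.

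FSH gonadotropes with *CCKBR* or *galr1b* also had a somewhat higher median *fshb* level. The median *fshb* level was 226 in WT cells with a *CCKBR* UMI and 164 in those without, and 204 and 186 in *gnrh3*-/- cells. With and without *galr1b* it was 235 and 178 in WT and 217 and 187 in *gnrh3*-/- cells. In thyrotropes the median *tshba* level was 1759 with and 1469 without *galr1a* in WT cells, and 1834 and 1514 in *gnrh3*-/- cells. LH gonadotropes with and without *gnrhr2* had median *lhb* levels of 897 and 734 in WT cells, and 608 and 526 in *gnrh3*-/- cells. The ranges from the lower to the upper quartile overlapped in every pair, for example 137 to 278 with and 101 to 271 without *CCKBR* for *fshb* in *gnrh3*-/- cells. The cells with a receptor UMI were the deeper ones in each of these pairs (17226.5 against 12113 UMIs for *CCKBR* in WT cells), and the part of depth in these differences was not tested.

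Between the genotypes, *galr1b* was the receptor whose level differed most. Its level in FSH gonadotropes was 0.346 (0.288 to 0.413) in WT cells and 0.214 (0.182 to 0.250) in *gnrh3*-/- cells, 1.62-fold (1.27 to 2.06) lower. The log2 ratio was −0.69 (−1.04 to −0.34). Of the 5596 genes with at least 100 UMIs in FSH gonadotropes, whose median log2 ratio was 0.02, 2.82% were at least 1.5-fold lower and 4.43% higher, and 1.47% had a lower ratio than *galr1b*. The *galr1b* level of LH gonadotropes was also lower, at 0.0710 (0.0468 to 0.103) and 0.0266 (0.0145 to 0.0446), 2.67-fold (1.35 to 5.50), from only 27 and 14 UMIs. In the same FSH gonadotropes *CCKBR* was at 0.461 (0.393 to 0.537) and 0.474 (0.425 to 0.526), a log2 ratio of 0.04 (−0.23 to 0.32), so an interval that allows up to 1.18-fold lower and 1.24-fold higher.

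The balance between the receptors of FSH gonadotropes differed accordingly. *CCKBR* supplied 57.1% (51.2% to 62.9%) of the UMIs of both in WT cells, 165 against 124, and 68.9% (64.6% to 72.9%) in *gnrh3*-/- cells, 343 against 155. This share does not depend on the total of the cells. In cells of 5000 to under 10000 UMIs it was 51.7% (32.5% to 70.6%) and 71.8% (65.4% to 77.7%), and in cells of at least 10000 UMIs 57.7% (51.4% to 63.9%) and 65.3% (59.0% to 71.3%). The direction was the same at each depth, although the intervals overlapped within both of these depths.

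For *gnrhr2* in LH gonadotropes the levels were 2.57 (2.41 to 2.74) and 2.24 (2.11 to 2.37), a log2 ratio of −0.20 (−0.32 to −0.08), where the median of 5131 genes was 0.07. The level in *gnrh3*-/- cells was thus 1.15-fold (1.05 to 1.25) lower, and 15.5% of the genes had a lower ratio. It was not among the genes at least 1.5-fold lower (2.51%) or higher (5.94%). The levels were then compared by depth. Under 5000 UMIs they were 1.99 (0.908 to 3.77) in 14 WT and 1.98 (1.49 to 2.57) in 81 *gnrh3*-/- cells. Among cells of 5000 to under 10000 UMIs the level was 2.30 (1.63 to 3.14) in 21 WT and 2.62 (2.43 to 2.83) in 338 *gnrh3*-/- cells. Among cells of at least 10000 UMIs it was 2.59 (2.43 to 2.76) in 197 and 1.87 (1.70 to 2.05) in 184 cells. The intervals were apart at 10000 UMIs and over alone, at median depths of 16950 (WT) and 11962.5 (*gnrh3*-/-) UMIs. They overlapped below that, so a change of direction with depth was not shown. Within the *gnrh3*-/- library, however, the level was lower at 10000 UMIs and over than at 5000 to under 10000, with intervals apart. The WT intervals overlapped. The deepest range held 197 of 232 WT but 184 of 603 *gnrh3*-/- cells, so the pooled ratio compares cells of unlike depth. The part of depth in that ratio was not tested.

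The level of *galr1b* in FSH gonadotropes was lower in *gnrh3*-/- cells at all 3 depths. It was 0.499 and 0.173 in cells under 5000 UMIs (3 and 8 UMIs, with only 17 WT cells), 0.430 and 0.224 at 5000 to under 10000 (14 and 62 UMIs), and 0.335 (0.274 to 0.405) and 0.212 (0.169 to 0.262) at 10000 and over (107 and 85 UMIs). Only at the highest depth did the intervals not overlap, and there the median depth was 17474 in WT and 12682 in *gnrh3*-/- cells. *CCKBR* in the same cells had 0.665 and 0.540 under 5000 UMIs, 0.461 and 0.572 at 5000 to under 10000, and 0.457 and 0.398 at 10000 and over. Its intervals overlapped at each depth, so no direction between the libraries can be read from them. Within the *gnrh3*-/- library the *CCKBR* interval at 10000 and over (0.339 to 0.465) lay below that at 5000 to under 10000 (0.486 to 0.668). In FSH gonadotropes with *lhb* below the limit used above, the *galr1b* level was 0.345 (0.284 to 0.416) and 0.204 (0.170 to 0.242). The summed level of hormone genes of other types in FSH gonadotropes, given above, was 46.4 and 343. Without the 2 WT and 56 *gnrh3*-/- cells in which such a gene exceeded 5% of UMIs, the *galr1b* log2 ratio was −0.63.

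In thyrotropes the *galr1a* log2 ratio was −0.14 (−0.33 to 0.06), near the median of −0.07 over 2662 genes, of which 8.26% were at least 1.5-fold lower and 4.62% higher. TMM scaling moved the ratios of thyrotropes by 0.17 upward and gave 0.03 for *galr1a*. In cells of at least 5000 UMIs (121 WT and 68 *gnrh3*-/- cells) the ratio was −0.49, below the interval. The direction for *galr1a* is thus not settled. Hormone genes of other types set a free-RNA limit of 5.86% for WT thyrotropes. For *gnrh3*-/- thyrotropes their largest value reached the cap of 100%, which is no limit. In these cells *gnrhr2* was at 0.0381 and *CCKBR* at 0.00636, against 0.222 and 0.110 in empty droplets. Subtraction of free RNA gave *galr1a* levels of 3.32 and 2.67, the latter with the full empty-droplet level of 0.348 taken off. The *galr1a* level fell with depth within both libraries, from 4.17 (3.49 to 4.95) under 5000 UMIs to 1.97 (1.40 to 2.68) at 10000 and over in WT, and from 3.48 (3.13 to 3.87) to 1.03 (0.645 to 1.56) in *gnrh3*-/- cells. The deepest cells numbered only 16 and 14, and from 5000 to under 10000 UMIs the level was 3.34 and 2.88.

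**Figure D4:**
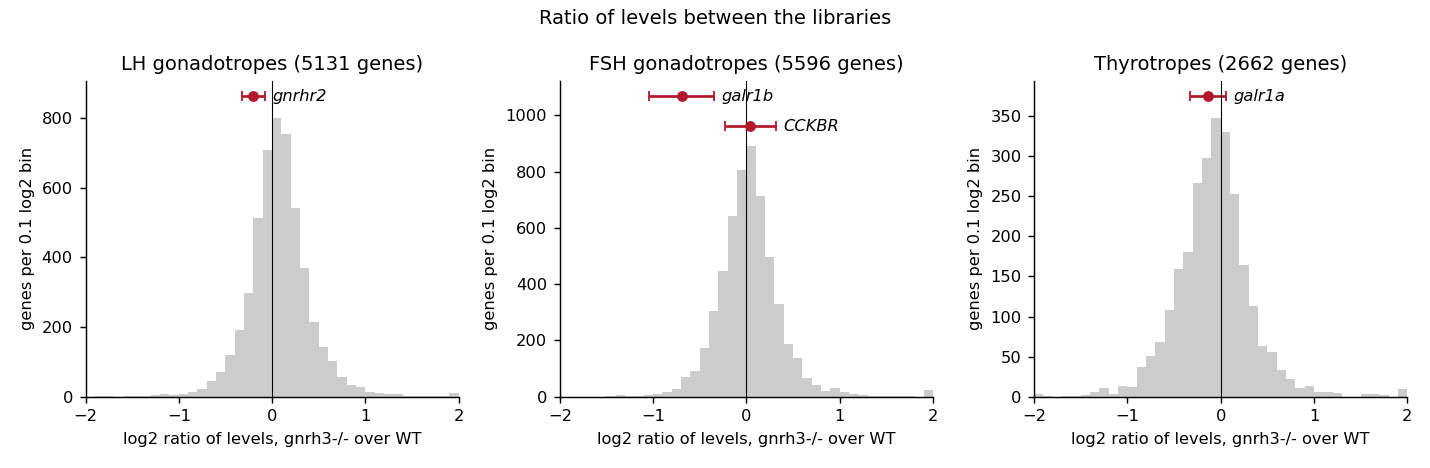
Log2 ratio of levels (*gnrh3*-/- over WT) of all genes with at least 100 UMIs in LH gonadotropes, FSH gonadotropes and thyrotropes (grey, genes per bin of 0.1, with ratios beyond the axis in the outermost bins). Red points with exact 95% intervals are the receptors, whose height on the axis has no meaning, and *galr1b* at −0.69 lies in the lower tail while *CCKBR*, at 0.04, lies in the centre.

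**Figure D5:**
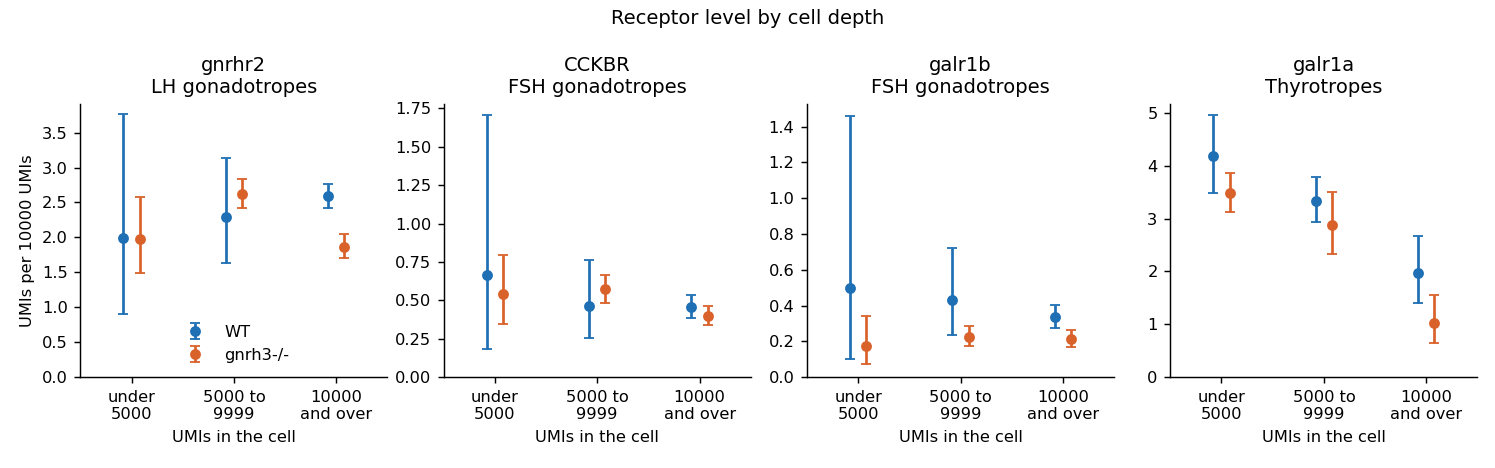
Receptor level (UMIs per 10000 UMIs) in cells of under 5000, 5000 to under 10000 and 10000 or more UMIs, with exact Poisson 95% intervals, for the WT (blue) and *gnrh3*-/- (orange) library. *galr1b* is lower in *gnrh3*-/- cells at each depth, while *gnrhr2* is higher at 5000 to under 10000 UMIs (2.62 against 2.30) and lower at 10000 and over (1.87 against 2.59). For both receptors the intervals overlap below 10000 UMIs and are apart at 10000 and over.

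Genes with a like pattern over the types were sought among the 11216 genes with at least 100 UMIs, by Pearson's r of the log2 level over 26 points (13 types in each library, which share the library's depth and free RNA). For *gnrhr2* these were *oprl1* (r = 0.97), *cuzd1.1* (0.96), *zgc:173443* (0.94), *megf11* (0.94) and *mcama* (0.93). The genes most like *CCKBR* were *cbln2b* (0.98), *gpr26* (0.97), *si:dkey-22f5.9* (0.96), *cax1* (0.96) and *cyp2k22* (0.94). Those most like *galr1b* were *cax1* (0.97), *nos1* (0.96), *gpr26* (0.96), *ntng2a* (0.96) and *gcgrb* (0.95), of which *cax1* and *gpr26* were also in the *CCKBR* list. For *galr1a*, a receptor added to this search after its values were seen, they were *phex* (0.91), *pabpc1l* (0.91), *mchr1b* (0.91), *lrrc4cb* (0.90) and *ntn1b* (0.87). Beside the *galr1b* levels of 0.346 and 0.214 in FSH gonadotropes, *gcgrb* had 0.0950 and 0.0469 and *gpr26* 0.137 and 0.106, whereas *cax1* had 0.0866 and 0.0842, *ntng2a* 0.0615 and 0.0704, and *nos1* 0.634 and 0.795. Genes with a like pattern over the types thus differed between the libraries in either direction.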

How the data were processed

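Single-cell 3′ libraries (10x Genomics) were made from pooled pituitaries, 1 per genotype. The authors counted UMIs with Cell Ranger 6.0.2 (the header of the raw matrices names version 4) on GRCz11 with protein-coding genes of Ensembl, and deposited raw counts, without normalization, for all barcodes and for the cells kept by their limits on UMIs, genes and mitochondrial share, with cell types assigned after integration in Seurat 4. Groups came from the genotype labels, and 1 of the 14 types is not reported here. The libraries shared 1 cell barcode, with a different type in each.

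UMIs were summed per gene, type and library and expressed per 10000 UMIs of all genes in the same cells. Levels have exact Poisson intervals, shares Clopper-Pearson intervals, and ratios exact conditional binomial intervals (scipy 1.17.1). Ratios were ranked among genes that reached 100 UMIs in the libraries together and 4 in each. Where a count was 0, the limit is that of 3 counts. Thinned shares are hypergeometric expectations, and cells under the thinned depth were left out (1 WT and 22 *gnrh3*-/- FSH gonadotropes at 2000 UMIs). Empty droplets are barcodes of 10 to 100 UMIs that are not cells. Doublets were kept, except in the alternatives. Scrublet (scanpy 1.11.5, expected rate 0.05) called 5 WT cells at a score of 0.334 and 167 *gnrh3*-/- cells at 0.203. With the lower score in both libraries, added after seeing the data, it still marked only 1 WT LH gonadotrope, 2 WT FSH gonadotropes and 2 WT thyrotropes. At either score it marked few WT cells, which was not taken as a working call. Likeness used log2(level + 0.01). No model was fitted to the counts, since 1 library per genotype has no replicate, and edgeR 4.0.16 was used only for TMM factors.

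The text names all members, the related receptors and peptides listed, the 3 highest genes of each comparison list and the 5 genes most like each receptor. The members and lists were chosen with earlier results of these data known. Alternatives were per-cell means, TMM and median-of-ratios scaling, a total without hormone genes, free-RNA subtraction, no Scrublet doublets, minimum depths, other thinning depths, 2 UMIs in place of 1, and other minimum counts. The alternatives for *galr1a*, removal of the cell with the most UMIs or of cells rich in another hormone, and single depth ranges were added after seeing the data. The calculations were tested on simulated data.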

Additional observations from a re-analysis of the deposited data

Results flagged for a closer look

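Transcripts of the receptors were also counted in barcodes that are not among the cells, which the comparisons above do not use. In the WT library these held 102 UMIs of *gnrhr2*, 23 of *CCKBR*, 40 of *galr1a* and 13 of *galr1b*, and in the *gnrh3*-/- library 132, 76, 188 and 18. Each number exceeds the limit of 3 counts. In the empty droplets among them, the level of *gnrhr2* was 0.213 and 0.222, that of *CCKBR* 0.0473 and 0.110, that of *galr1a* 0.118 and 0.348, and that of *galr1b* 0.0425 and 0.0253. Levels in the types that hold the receptors were higher in both libraries, and every other type lay below the empty-droplet level, except LH gonadotropes for *galr1b* (0.0710 and 0.0266).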

How the results depend on the processing

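No paired analysis was possible because each genotype has a single library. The type with the highest level was shared by the libraries for 4 receptors, and for 4 with per-cell means. A total without hormone genes raised the levels by construction, *gnrhr2* in LH gonadotropes to 3.19 (WT) and 2.67 (*gnrh3*-/-), *CCKBR* in FSH gonadotropes to 0.541 and 0.555, and *galr1b* to 0.251 in the *gnrh3*-/- library. For *CCKBR* in the *gnrh3*-/- library, per-cell means gave 0.536, and free-RNA subtraction at the loose limit of 57.0% gave 0.411. The *galr1b* log2 ratio in FSH gonadotropes stayed between −0.94 and −0.63 over its 10 alternatives, and that of *CCKBR* between 0.03 and 0.31. The *gnrhr2* ratio stayed between −0.28 and −0.12 over 9 alternatives. It was 0.19 in cells of 5000 to under 10000 UMIs, where the intervals of the levels overlapped, an alternative chosen after seeing the data. The cause was not tested. Joint detection of *CCKBR* and *galr1b* over the product of the shares (1.03 WT and 0.962 *gnrh3*-/-) was 1.50 and 0 with at least 2 UMIs of each, where 6 and 0 cells remained. With a minimum of 20 UMIs in place of 100, the genes at least 1.5-fold lower and higher in *gnrh3*-/- cells went from 129 and 305 to 603 and 1211 in LH gonadotropes, from 158 and 248 to 766 and 969 in FSH gonadotropes, and from 220 and 123 to 1510 and 573 in thyrotropes. With 1 UMI in each library as the minimum they were 1519 and 2392, 2100 and 1942, and 3375 and 1851. On a linear scale, 2, 1, 1 and 3 of the 5 genes most like *gnrhr2*, *CCKBR*, *galr1b* and *galr1a* stayed the same.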
